A study of Mus musculus with 15 samples.

Results

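The genes described here are 10 genes of the NRF2 antioxidant pathway, chosen by name: Nfe2l2, Keap1, Sqstm1, Gclc, Gclm, Gsr, Txnrd1, Srxn1, Prdx1 and Hmox1. Their RNA was followed across 5 treatment groups of mouse mammary tumour mammospheres on Affymetrix Mouse430_2 arrays, where a gene is read by 1 or more probe sets. A probe set was used only if the platform annotation gave it exactly 1 gene. That left 20 of 45037 probe sets, which cover 9 of the 10 genes. Prdx1, a peroxiredoxin that removes hydrogen peroxide, has 5 probe sets, and each is annotated to 2 genes, so no value is given for it. Of the other members, 1 has 1 probe set (Hmox1), 6 have 2, 1 has 3 (Txnrd1) and 1 has 4 (Srxn1). Each gene was represented by its brightest probe set, and all 9 representatives lay above the array median on all 15 arrays and were among the 11412 genes tested.

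All groups were mammospheres, floating spheres grown without serum from primary mammary tumour cells of FVB/N mice. The mice carried MMTV-PyMT, the polyoma middle T oncogene driven by a mouse mammary tumour virus promoter that is active in mammary epithelium. The medium held EGF, FGF and B27, and each culture lasted 12 days, of which the last 2 were with vehicle or an inhibitor. The 5 groups of 3 arrays were vehicle, DAPT (an inhibitor of the γ-secretase step of Notch signalling), U0126 (MEK1), TAE226 (focal adhesion kinase, FAK) and PP2 (Src family kinases). The inhibitor doses were not known here. The arrays of a group are labelled as biological replicates, with no word on separate mice or cultures, so p-values measure only the spread between the arrays of a group, which may be technical. Values are MAS5 signal intensities on the log2 scale, and each error is an SD over 3 arrays (n = 3) unless called a standard error (SE). A gene was called higher or lower where limma's adjusted p, taken over all 11412 genes, was under 0.05.

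NRF2, encoded by Nfe2l2, is a transcription factor that is normally captured by KEAP1 and sent to the proteasome. When oxidants or electrophiles modify cysteines of KEAP1, NRF2 escapes, pairs with a small MAF protein and binds antioxidant response elements near its target genes. These targets make glutathione, recycle glutathione and thioredoxin, and break down haem. SQSTM1, an autophagy receptor, can hold KEAP1 away from NRF2 and is itself an NRF2 target. In mammary and other epithelial tumours the pathway is known for its part in resistance to oxidative and chemical stress.

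The sequences before the start sites are shown because antioxidant response elements are often found close to the start of NRF2 target genes. RefSeq promoter windows on GRCm38.p6, from 250 bases before to 50 bases after a start, were held for 6 of the 9 measured members. They were searched on both strands for TGACNNNGC, a core of the element, and for TGANTCAGC, a form that also fits MAF partners. TGACTCAGC fits both. The first core was found in 12.4% of 32851 such windows, the second in 1.19% and either in 13%. A match was present for 4 of the 6 genes: Nfe2l2, Gclm, Txnrd1 (at the second of 3 starts) and Srxn1. This counts genes, of which Txnrd1 had 3 windows, whereas the shares above count single windows. Hmox1, Gclc and Gsr had no window and were not searched. No match was found in the windows of Keap1 and Sqstm1. The 250 bases before the start are printed 5′ to 3′ on the gene's strand, with matches in capitals. The first base of the match lies at -240 for Nfe2l2 (chr2:75704664-75704913, minus strand), -134 for Gclm (chr3:122245307-122245556, plus strand) and -92 for Txnrd1 (chr10:82858956-82859205, plus strand). In Srxn1 (chr2:152105274-152105523, plus strand) the capitals mark TGAGTCAGC at -45, and a further match, GCTAGGTCA, lies after the start at 29. Sqstm1 (chr11:50210821-50211070, minus strand) is shown as the window without a match of the member that fell under every inhibitor. A match describes letters in a window and was not tested as a binding site.
Nfe2l2: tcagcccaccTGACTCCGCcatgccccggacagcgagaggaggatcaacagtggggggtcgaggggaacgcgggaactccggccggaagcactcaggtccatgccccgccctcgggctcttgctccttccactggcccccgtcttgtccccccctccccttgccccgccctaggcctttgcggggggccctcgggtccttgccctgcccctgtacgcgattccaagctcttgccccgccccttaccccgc
Gclm: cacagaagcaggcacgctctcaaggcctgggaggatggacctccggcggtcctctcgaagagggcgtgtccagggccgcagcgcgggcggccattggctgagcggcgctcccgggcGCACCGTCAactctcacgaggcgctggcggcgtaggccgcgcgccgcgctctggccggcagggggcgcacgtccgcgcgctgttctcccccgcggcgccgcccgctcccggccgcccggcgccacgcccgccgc
Txnrd1: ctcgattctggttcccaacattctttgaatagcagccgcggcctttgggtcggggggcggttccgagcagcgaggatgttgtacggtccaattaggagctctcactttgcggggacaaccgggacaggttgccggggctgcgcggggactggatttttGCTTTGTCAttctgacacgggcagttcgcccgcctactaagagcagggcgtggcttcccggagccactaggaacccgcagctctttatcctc
Srxn1: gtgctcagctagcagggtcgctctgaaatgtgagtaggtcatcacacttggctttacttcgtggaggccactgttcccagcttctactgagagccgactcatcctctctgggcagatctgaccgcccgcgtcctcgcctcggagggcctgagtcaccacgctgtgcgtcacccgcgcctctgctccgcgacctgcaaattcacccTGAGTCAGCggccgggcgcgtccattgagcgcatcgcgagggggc
Sqstm1: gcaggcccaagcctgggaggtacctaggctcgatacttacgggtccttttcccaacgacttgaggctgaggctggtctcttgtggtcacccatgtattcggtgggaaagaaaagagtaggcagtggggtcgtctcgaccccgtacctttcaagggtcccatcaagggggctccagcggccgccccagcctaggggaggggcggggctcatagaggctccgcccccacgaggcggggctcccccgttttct

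Array medians ran from 65.7 to 90.8 on the linear scale. The 5 epithelial markers (Epcam, Krt8, Krt18, Krt19, Cdh1) lay above the array median on all 15 arrays. No marker of lymphocytes, fibroblasts, endothelium, adipocytes or erythroid cells lay above the median on all arrays of any group. Of 7 macrophage markers, 2 did so under vehicle and 1 under U0126, and their summed intensity was 11337 to 12481 under vehicle, 8962 to 9175 under DAPT, 2216 to 2437 under U0126, 7217 to 7677 under TAE226 and 11750 to 12175 under PP2. That sum was mostly Cd14, whereas Ptprc, Lyz2 and Cd163 lay below the median on all 15 arrays. The ratio of the 3′ to the 5′ actin control, a sign of RNA quality, was 1.42 ± 0.06 under vehicle, 1.28 to 1.35 on average under DAPT, U0126 and TAE226, and 1.57 ± 0.038 under PP2.

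The glutathione synthesis genes Gclc and Gclm rose under all 4 inhibitors, and Sqstm1 fell under all 4. U0126 gave the largest rises of Gclc, Gclm and Srxn1. PP2 gave that of Gsr, which was called in its representative probe set but not in the other. Hmox1 rose under U0126 and TAE226 and fell under PP2. Nfe2l2 itself differed by at most 1.28-fold between any 2 groups. In bulk samples such as these, fewer cells of a type and less RNA per cell cannot be told apart. An F-test over the 5 groups called 8 of the 9 members, all but Keap1 (adjusted p = 0.103), against 73.2% of all genes tested.

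**Figure D1:**
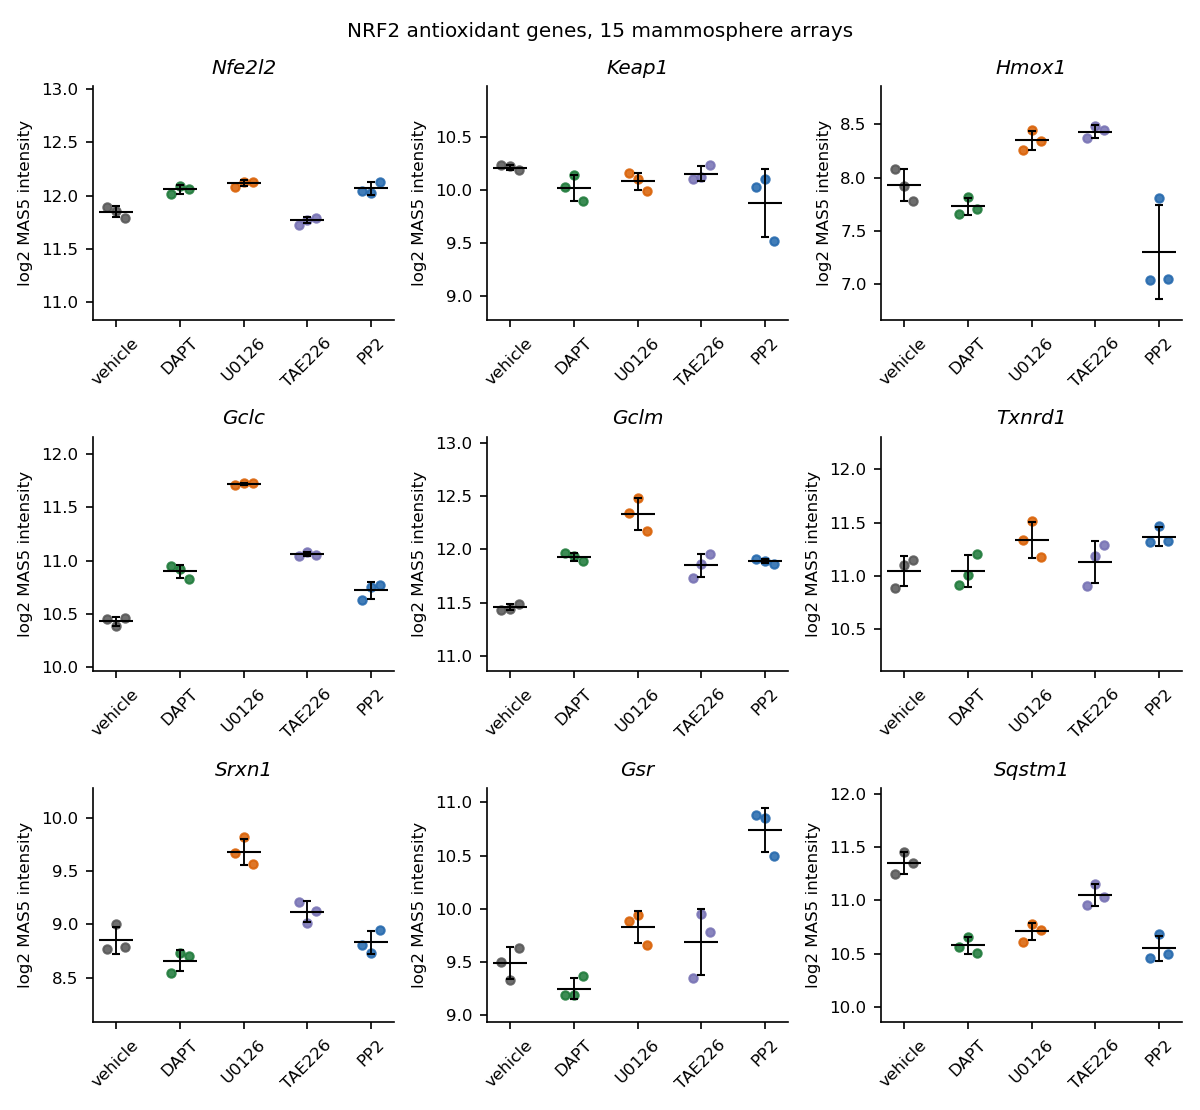
Log2 MAS5 intensity of the representative probe set of each of the 9 members (vertical axes, all spanning an equal number of log2 units) in the 5 groups (horizontal axis), with points for single arrays, bars for the mean and whiskers for 1 SD over 3 arrays. Gclc and Gclm are lowest under vehicle and highest under U0126, Sqstm1 is highest under vehicle, and the PP2 arrays of Hmox1 and Keap1 are the most widely spread.

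Under DAPT, 3 of the 9 members were higher than under vehicle (Nfe2l2, Gclc, Gclm) and 1 was lower (Sqstm1), where 17.1% of all genes were called higher and 17.5% lower. U0126 gave 6 higher (Nfe2l2, Hmox1, Gclc, Gclm, Txnrd1, Srxn1) and 1 lower (Sqstm1), against 19.5% of all genes higher and 21.4% lower. Members under TAE226 were higher in 4 cases (Hmox1, Gclc, Gclm, Srxn1) and lower in 1 (Sqstm1), against 15.2% and 15.9% of all genes. With PP2, 5 were higher (Nfe2l2, Gclc, Gclm, Txnrd1, Gsr) and 3 lower (Keap1, Hmox1, Sqstm1), against 26.1% and 26.7% of all genes. The median log2 fold change of the 9 members was -0.19 under DAPT, 0.34 under U0126, 0.21 under TAE226 and 0.22 under PP2, while that of all genes was 0.00 to 0.02. All 4 comparisons share the same 3 vehicle arrays.

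These splits depend on how the arrays are scaled. Centring each array on its median, in place of the deposited MAS5 scale, moved all genes by -0.13 under DAPT, -0.08 under U0126, -0.25 under TAE226 and -0.22 under PP2 (median shift, log2). Members called higher and lower were then 2 and 3 under DAPT, 3 and 1 under U0126, 1 and 3 under TAE226 and 1 and 3 under PP2. The split of all genes moved with them, to 689 higher and 2444 lower under DAPT, 1211 and 2424 under U0126, 428 and 4241 under TAE226, and 1210 and 4331 under PP2. Quantile normalization stayed closer to the MAS5 scale. It gave 3 members higher and 1 lower under DAPT, 5 and 1 under U0126, 2 and 1 under TAE226 and 5 and 3 under PP2. All genes then split 1818 higher and 2045 lower under DAPT, and 2206 and 2411 under U0126. They split 1558 and 1947 under TAE226, and 2821 and 3202 under PP2. Calls that held on both the MAS5 and the median-centred scale were Gclc under DAPT, U0126 and TAE226, Gclm under DAPT and U0126, Srxn1 under U0126, Gsr, Hmox1 and Keap1 under PP2, and Sqstm1 under all 4 inhibitors. The Keap1 call did not pass without PP2 replicate 3 (-0.15, adjusted p = 0.129). The Gsr call was not shared by that gene's second probe set (0.16, adjusted p = 0.283).

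**Figure D2:**
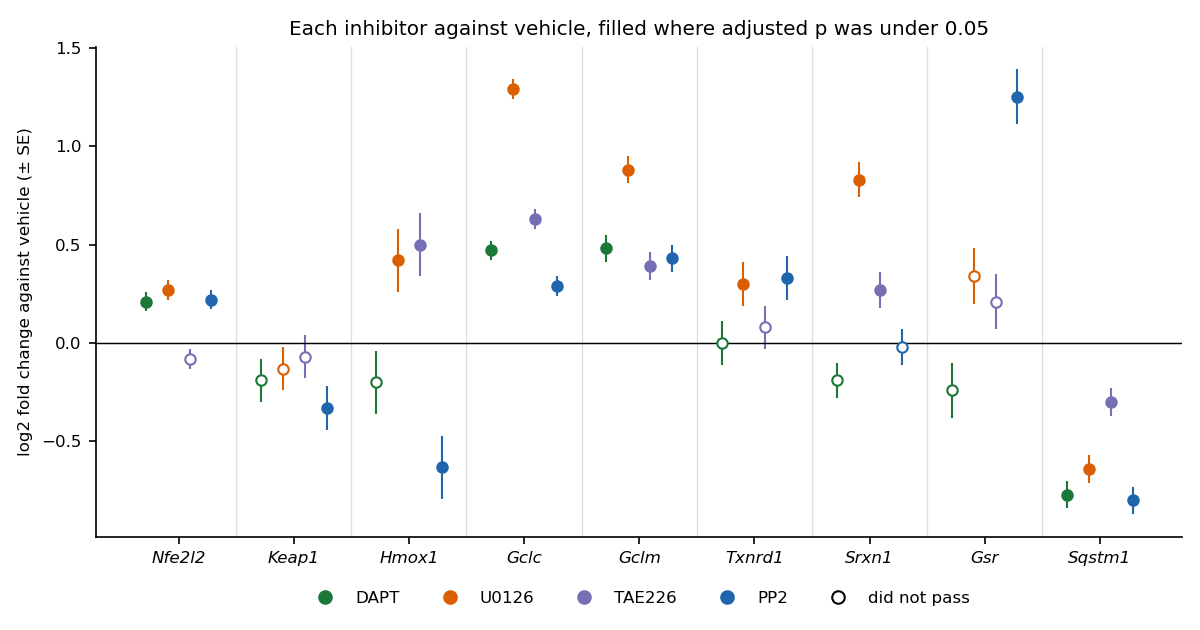
Log2 fold change of each member under DAPT, U0126, TAE226 and PP2 against vehicle (points, with the SE as whiskers), filled where the adjusted p was under 0.05. Gclc under U0126 (1.29) and Gsr under PP2 (1.25) are the highest points, and Sqstm1 lies below 0 in all 4 comparisons, as far as -0.80 under PP2.

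Nfe2l2, the transcription factor itself, changed little. Its log2 intensity was 11.89, 11.86 and 11.79 on the vehicle arrays. Under DAPT it was 12.02, 12.09 and 12.06, under U0126 12.08, 12.13 and 12.13, and under PP2 12.04, 12.03 and 12.13. TAE226 gave 11.73, 11.77 and 11.79. The arrays of DAPT, U0126 and PP2 all lay above every vehicle array, while those of TAE226 overlapped vehicle at its lower edge. The rises were 0.21 under DAPT (SE 0.05, adjusted p = 0.00222), 0.27 under U0126 (SE 0.05, adjusted p = 0.000202) and 0.22 under PP2 (SE 0.05, adjusted p = 0.000813). The TAE226 difference was -0.08 and did not pass (adjusted p = 0.213, 95% interval -0.18 to 0.02). From high to low the order was U0126, PP2, DAPT, vehicle and TAE226, and only the step from DAPT to vehicle passed between neighbours. The 3 rises did not pass on median-centred arrays (0.08, 0.19 and 0.00 under DAPT, U0126 and PP2), where TAE226 was lower instead (-0.34, adjusted p = 0.0145). A second Nfe2l2 probe set lay below the array median on all 15 arrays and was not tested, and averaging both left none of the 4 comparisons called.

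Keap1 encodes the adaptor that hands NRF2 to the CUL3 ubiquitin ligase. It stood at 10.23, 10.22 and 10.19 on the vehicle arrays, and at 10.03, 10.10 and 9.52 under PP2. Replicate 3 of PP2 was far below the others, and it set most of the difference of -0.33 (SE 0.11, adjusted p = 0.021), since without it the difference was -0.15 and did not pass (adjusted p = 0.129). Leaving out vehicle replicate 1 also ended the call (-0.32, adjusted p = 0.0544). DAPT (10.02 ± 0.12), U0126 (10.08 ± 0.08) and TAE226 (10.15 ± 0.07) lay between vehicle (10.21 ± 0.02) and PP2 (9.88 ± 0.32), and no pair of neighbours in that order differed past the threshold. The other Keap1 probe set passed in none of the 4 comparisons, with differences from -0.13 to 0.14. On median-centred arrays Keap1 was also lower under DAPT (-0.32, adjusted p = 0.0427) and TAE226 (-0.32, adjusted p = 0.0332).

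Sqstm1 fell under every inhibitor. Vehicle arrays read 11.25, 11.45 and 11.35. DAPT arrays read 10.56, 10.66 and 10.51, U0126 arrays 10.61, 10.78 and 10.72, TAE226 arrays 10.96, 11.15 and 11.03, and PP2 arrays 10.46, 10.68 and 10.50. No inhibitor array reached the vehicle arrays, and those of TAE226 lay between vehicle and the other inhibitors without overlap. The fall was 0.80 under PP2 (-0.80, SE 0.07, adjusted p = 1.16e-07, or 1.75-fold lower), 0.77 under DAPT (-0.77, adjusted p = 4.66e-07), 0.64 under U0126 (-0.64, adjusted p = 2.71e-06) and 0.30 under TAE226 (-0.30, adjusted p = 0.00512). TAE226 differed from U0126, its lower neighbour, by 0.34 (adjusted p = 0.00177), whereas the steps from U0126 to DAPT and from DAPT to PP2 did not pass. A much dimmer Sqstm1 probe set, 1444021_at (6.39 to 7.42 on the 15 arrays), passed in none of the 4 comparisons with vehicle, and its TAE226 difference was 0.35 (SE 0.19, adjusted p = 0.198). Between inhibitors it was higher under TAE226 than under DAPT (0.61, adjusted p = 0.0385), as the representative was. It did not pass for TAE226 against U0126 (0.38, adjusted p = 0.154) or PP2 against TAE226 (-0.21, adjusted p = 0.431), where the representative did. The mean of both probe sets was still lower under DAPT (-0.52), U0126 (-0.34) and PP2 (-0.33), but stood at 0.02 under TAE226 (adjusted p = 0.909).

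Gclc encodes the catalytic subunit of glutamate-cysteine ligase, the rate-limiting enzyme of glutathione synthesis. Its log2 intensity was 10.45, 10.39 and 10.46 under vehicle and 11.71, 11.73 and 11.73 under U0126. Under DAPT it was 10.95, 10.92 and 10.83, under TAE226 11.04, 11.08 and 11.05, and under PP2 10.63, 10.75 and 10.77. No 2 groups overlapped, and the U0126 arrays stood well apart from all others. The rise was 1.29 under U0126 (SE 0.05, adjusted p = 3.78e-12), a 2.45-fold difference, 0.63 under TAE226 (adjusted p = 1.13e-07), 0.47 under DAPT (adjusted p = 2.26e-06) and 0.29 under PP2 (adjusted p = 0.000187). Each step in the order U0126, TAE226, DAPT, PP2, vehicle passed, from 0.66 between U0126 and TAE226 (adjusted p = 4.13e-08) to 0.16 between TAE226 and DAPT (adjusted p = 0.0386). The step between TAE226 and DAPT was the least certain. It did not pass without DAPT replicate 2 or 3 or without TAE226 replicate 1, 2 or 3 (0.12 to 0.17, adjusted p from 0.058 to 0.153), and the step from DAPT to PP2 did not pass without PP2 replicate 1 (-0.14, adjusted p = 0.0621). The second Gclc probe set, 1455959_s_at, rose in all 4 comparisons too, by 0.60, 1.40, 0.82 and 0.69 under DAPT, U0126, TAE226 and PP2. In it, TAE226 against DAPT (0.22, adjusted p = 0.0983), PP2 against DAPT (0.09, adjusted p = 0.446) and PP2 against TAE226 (-0.13, adjusted p = 0.284) did not pass, so the order of these groups rests on the representative. On median-centred arrays the PP2 difference of the representative was 0.07 and did not pass.

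Gclm, the modifier subunit that raises the efficiency of the same enzyme, was also lowest under vehicle. The vehicle arrays read 11.43, 11.44 and 11.49, the DAPT arrays 11.97, 11.94 and 11.89, and the PP2 arrays 11.91, 11.89 and 11.86. U0126 gave 12.34, 12.48 and 12.17, and TAE226 gave 11.73, 11.86 and 11.96. All inhibitor arrays lay above vehicle, U0126 lay above the rest, and DAPT, PP2 and TAE226 overlapped. The rises were 0.88 under U0126 (SE 0.07, adjusted p = 2.48e-08, 1.83-fold), 0.48 under DAPT (adjusted p = 4.49e-05), 0.43 under PP2 (adjusted p = 5.24e-05) and 0.39 under TAE226 (adjusted p = 0.00034). U0126 exceeded DAPT, the next group, by 0.40 (adjusted p = 0.000173). In the representative probe set the differences between DAPT, PP2 and TAE226 did not pass. For TAE226 against DAPT the difference was -0.08, with a 95% interval from -0.23 to 0.06. The second Gclm probe set, 1439050_at, rose by 0.82, 1.21, 0.34 and 0.40 under DAPT, U0126, TAE226 and PP2. In it, TAE226 (-0.48, adjusted p = 0.000298) and PP2 (-0.42, adjusted p = 0.000497) were lower than DAPT. On median-centred arrays the Gclm differences under TAE226 (0.14) and PP2 (0.21) did not pass.

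Gsr encodes glutathione reductase, which returns oxidised glutathione to its reduced form. Its values were 9.50, 9.33 and 9.63 under vehicle and 10.88, 10.85 and 10.50 under PP2. DAPT gave 9.19, 9.19 and 9.37, U0126 9.89, 9.94 and 9.66, and TAE226 9.35, 9.95 and 9.78. Only the PP2 arrays stood clear of all other groups. The PP2 rise was 1.25 (SE 0.14, adjusted p = 7.72e-07, 2.39-fold), and PP2 exceeded U0126, the next group, by 0.91 (adjusted p = 2.53e-05). No other comparison with vehicle passed, at -0.24 under DAPT, 0.34 under U0126 (adjusted p = 0.0536) and 0.21 under TAE226. On median-centred arrays Gsr was lower under DAPT (-0.37, adjusted p = 0.0398). The U0126 difference passed without U0126 replicate 3 (0.43, adjusted p = 0.0328) or vehicle replicate 3 (0.42, adjusted p = 0.0389), and the TAE226 difference passed without TAE226 replicate 1 (0.38, adjusted p = 0.03). The other Gsr probe set, 1421816_at, did not share the PP2 rise. It read 9.61, 9.32 and 9.87 under vehicle and 9.78, 9.77 and 9.72 under PP2, a difference of 0.16 (SE 0.12, adjusted p = 0.283). Against DAPT it was higher under PP2 (0.33, adjusted p = 0.0382), and no other pair of groups passed in it. The actin 3′ to 5′ ratio was also highest under PP2, and its part in this difference between probe sets was not tested.

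Txnrd1 encodes cytosolic thioredoxin reductase, which keeps thioredoxin reduced. The representative probe set, 1421529_a_at, read 10.89, 11.10 and 11.15 under vehicle, 11.34, 11.52 and 11.18 under U0126, and 11.32, 11.47 and 11.33 under PP2. U0126 lay above vehicle by a narrow margin and PP2 by a wider one, while DAPT (11.05 ± 0.15) and TAE226 (11.13 ± 0.20) overlapped vehicle. The rises were 0.30 under U0126 (SE 0.11, adjusted p = 0.0324) and 0.33 under PP2 (SE 0.11, adjusted p = 0.0155). The first did not pass without U0126 replicate 1 or 2 or vehicle replicate 1 (0.21 to 0.30, adjusted p from 0.0656 to 0.159), and the second did not pass without PP2 replicate 2 (0.28, adjusted p = 0.0661) or vehicle replicate 1 (0.25, adjusted p = 0.0846). Neither passed on median-centred arrays (0.21 and 0.11). No neighbours in the order PP2, U0126, TAE226, DAPT, vehicle differed past the threshold.

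The other Txnrd1 probe sets moved more. In 1424486_a_at the vehicle arrays read 7.52, 7.11 and 7.79, the TAE226 arrays 8.22, 8.41 and 8.41, and the PP2 arrays 8.65, 8.87 and 8.99. The U0126 arrays read 7.95, 8.08 and 8.21. Here U0126, TAE226 and PP2 all lay above every vehicle array. The rises were 0.60 under U0126 (SE 0.16, adjusted p = 0.00652), 0.87 under TAE226 (adjusted p = 0.000576) and 1.36 under PP2 (adjusted p = 2.48e-06), with 0.25 under DAPT not passing. The remaining Txnrd1 probe set, 1424487_x_at, whose suffix marks probes that may cross-hybridise, rose by 1.36 under TAE226 and 1.74 under PP2. The probe sets thus differed on TAE226, where the representative was at 0.08 (adjusted p = 0.591). Which transcripts they read was not tested.

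**Figure D3:**
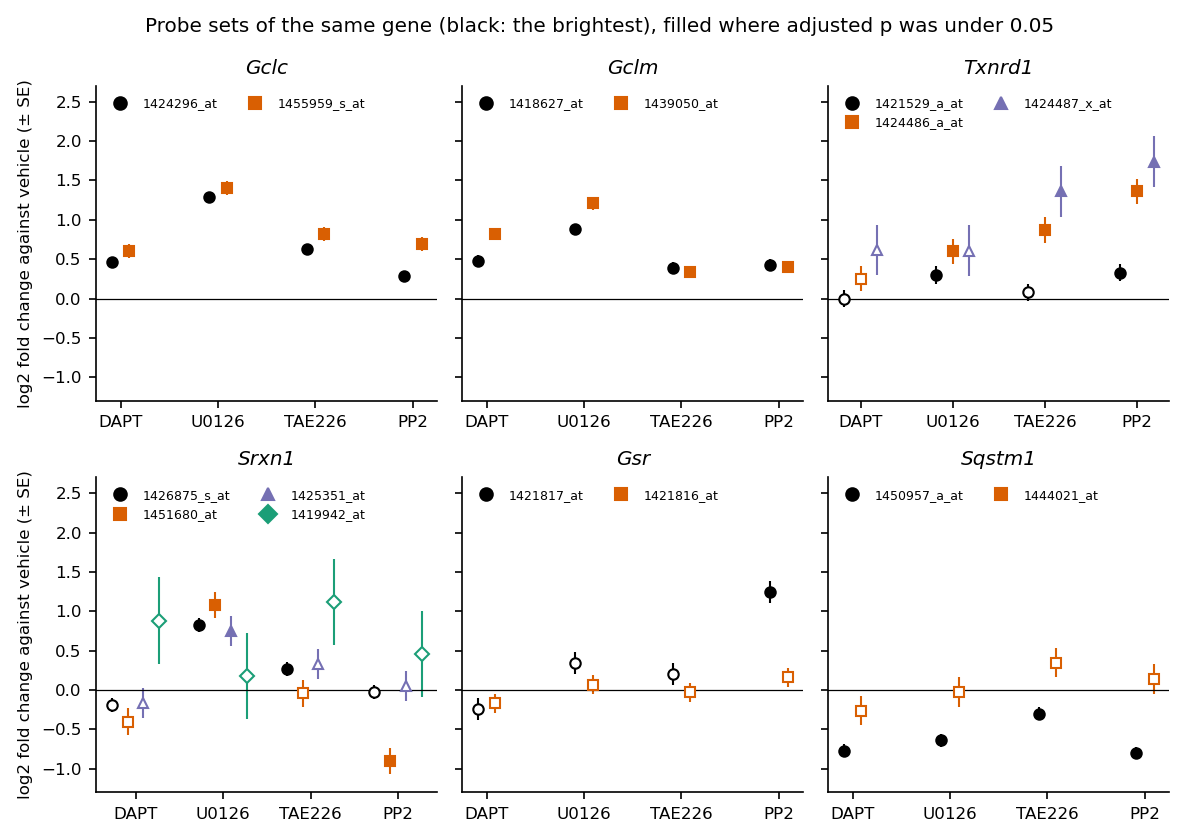
Log2 fold change against vehicle (points, SE as whiskers) of every tested probe set of 6 members, with the representative in black and filled points where the adjusted p was under 0.05. All probe sets of Gclc and Gclm lie above 0 under each inhibitor, though at different heights (0.29 and 0.69 for Gclc under PP2, 0.48 and 0.82 for Gclm under DAPT). PP2 separates those of Gsr (1.25 and 0.16), Txnrd1 (0.33, 1.36 and 1.74) and Srxn1 (-0.90 to 0.46).

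Srxn1 encodes sulfiredoxin, which repairs over-oxidised peroxiredoxins. Its representative read 8.77, 9.00 and 8.79 under vehicle, 9.67, 9.82 and 9.57 under U0126, and 9.21, 9.01 and 9.13 under TAE226. U0126 stood above every other array of this gene, and TAE226 lay just above vehicle. The rise under U0126 was 0.83 (SE 0.09, adjusted p = 2.02e-06, 1.78-fold), and U0126 exceeded TAE226, the next group, by 0.57 (adjusted p = 0.000161). The TAE226 rise was 0.27 (SE 0.09, adjusted p = 0.041). It did not pass without TAE226 replicate 1 or 3 or vehicle replicate 1 or 3 (0.22 to 0.26, adjusted p from 0.0986 to 0.141), and on median-centred arrays it was 0.01. DAPT (8.66 ± 0.10, difference -0.19) and PP2 (8.83 ± 0.11, difference -0.02) did not pass against vehicle (8.85 ± 0.13).

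The U0126 rise of Srxn1 was shared by the probe sets 1451680_at (1.08, adjusted p = 0.000125) and 1425351_at (0.75, adjusted p = 0.00451). PP2 divided them. In 1451680_at the vehicle arrays read 7.51, 7.31 and 7.42 and the PP2 arrays 6.81, 6.04 and 6.71, so that PP2 lay below every vehicle array (-0.90, SE 0.17, adjusted p = 0.000435). In 1425351_at the PP2 difference was 0.05. The dimmest probe set, 1419942_at, lay above the array median on 10 of 15 arrays and passed in no comparison (SE 0.55).

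Hmox1 encodes haem oxygenase 1, which cleaves haem into biliverdin, iron and carbon monoxide, and is read by a single probe set. The vehicle arrays read 8.08, 7.92 and 7.78. U0126 gave 8.26, 8.45 and 8.34, TAE226 gave 8.37, 8.48 and 8.45, and PP2 gave 7.04, 7.81 and 7.05. U0126 and TAE226 lay above every vehicle array, whereas the second PP2 array stayed within the vehicle range and the other two lay far below it. The fall under PP2 was 0.63 (-0.63, SE 0.16, adjusted p = 0.00379). Hmox1 rose by 0.50 under TAE226 (SE 0.16, adjusted p = 0.0264) and by 0.42 under U0126 (SE 0.16, adjusted p = 0.0487), and DAPT (7.73 ± 0.08) did not pass at -0.20 (adjusted p = 0.376). Both rises were lost when single arrays were left out. The TAE226 rise did not pass without TAE226 replicate 2 or 3 or vehicle replicate 2 or 3 (0.43 to 0.50, adjusted p from 0.062 to 0.0917). The U0126 rise did not pass without any 1 of the 3 U0126 arrays or without vehicle replicate 2 or 3 (0.35 to 0.46, adjusted p from 0.0628 to 0.149). On median-centred arrays the PP2 fall was 0.85 (-0.85, adjusted p = 0.00024), while the rises, at 0.34 and 0.25 under U0126 and TAE226, did not pass. Hmox1 is also expressed by macrophages. The summed macrophage markers were lowest under U0126, where Hmox1 rose, and near the vehicle level under PP2, where it fell. Since that sum is mostly Cd14, and Ptprc, Lyz2 and Cd163 were below the median on every array, it is no measure of macrophage number, and the part of such cells in the Hmox1 values was not tested.

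Gclc, Gclm and Srxn1 were higher under U0126 than under each other inhibitor. Against DAPT, U0126 had 6 members higher (Hmox1, Gclc, Gclm, Txnrd1, Srxn1, Gsr) and 0 lower, where 21.6% of all genes were higher and 23.2% lower. Limma's unadjusted p was under 0.05 for no member in the lower direction. Gclc was 0.82 higher (adjusted p = 1.75e-09), Srxn1 1.03 higher (adjusted p = 1.76e-07), Hmox1 0.62 higher (adjusted p = 0.00522) and Gsr 0.58 higher (adjusted p = 0.00235). The second Gsr probe set did not pass there (0.25, adjusted p = 0.112). The Txnrd1 difference of 0.29 did not pass without DAPT replicate 1 or 2 or U0126 replicate 1 or 2 (0.21 to 0.30, adjusted p from 0.0639 to 0.158).

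PP2 against U0126 gave 1 member higher (Gsr, 0.91) and 4 lower, with 28% of all genes higher and 27.8% lower. The lower ones were Hmox1 (-1.05, adjusted p = 3.62e-05), Gclc (2.01-fold, adjusted p = 5.47e-11), Srxn1 (-0.85, adjusted p = 7.78e-07) and Gclm (-0.44, adjusted p = 3.66e-05). The Gsr difference was not called in that gene's second probe set (0.09, adjusted p = 0.573). TAE226 against U0126 gave 1 higher (Sqstm1, 0.34) and 4 lower (Nfe2l2 -0.35, Gclc -0.66, Gclm -0.48, Srxn1 -0.57), against 19.5% and 17.7% of all genes. The Sqstm1 difference was not called in that gene's second probe set (0.38, adjusted p = 0.154). Hmox1 did not differ past the threshold between TAE226 and U0126 (0.08, 95% interval -0.26 to 0.43).

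FAK and Src, the kinases that TAE226 and PP2 block, work together in adhesion signalling. PP2 against TAE226 gave 2 higher (Nfe2l2 0.30, Gsr 1.05) and 4 lower (Hmox1 -1.13, Sqstm1 -0.50, Gclc -0.34, Srxn1 -0.28), where 20.4% of all genes were higher and 23.2% lower. The Hmox1 difference, 2.19-fold (adjusted p = 2.59e-05), was the widest of them. In the second probe sets of Gclc (-0.13, adjusted p = 0.284), Gsr (0.19, adjusted p = 0.235) and Sqstm1 (-0.21, adjusted p = 0.431) the difference was not called. The Srxn1 difference did not pass without PP2 replicate 1 or 2 or TAE226 replicate 1 or 3 (-0.28 to -0.23, adjusted p from 0.056 to 0.0911).

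Against DAPT, TAE226 gave 5 members higher (Hmox1 0.70, Gclc 0.16, Srxn1 0.46, Gsr 0.44, Sqstm1 0.47) and 1 lower (Nfe2l2 -0.29), with 11.2% of all genes higher and 11.4% lower. The Gsr difference did not pass without DAPT replicate 1 or 2 or TAE226 replicate 2 or 3 (0.31 to 0.41, adjusted p from 0.0828 to 0.148). It was not called in that gene's second probe set (0.14, adjusted p = 0.461). PP2 against DAPT gave 2 higher (Gsr 1.49, Txnrd1 0.32) and 2 lower (Hmox1 -0.43, Gclc -0.18), with 18.1% of all genes higher and 21.6% lower. That Hmox1 difference did not pass without any 1 of the 3 DAPT arrays or without PP2 replicate 1 or 3 (-0.46 to -0.30, adjusted p from 0.0691 to 0.203). The Txnrd1 difference did not pass without DAPT replicate 1 or 2 or PP2 replicate 2 (0.26 to 0.31, adjusted p from 0.0673 to 0.0988).

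For each member the 3 tested genes with the most similar 5 group means were found, with all members left out of the search. Likeness was the root mean square difference after removing each gene's own mean. For Gclc these were Mmd (0.04, log2), Plppr2 (0.06) and Exph5 (0.10). Plppr2 averaged 6.87 under U0126. Its means under vehicle (5.45), DAPT (6.07), TAE226 (6.20) and PP2 (5.90) lay below the medians of those arrays, so its likeness there rests on low values. Mmd, for instance, went from 9.31 under vehicle to 10.52 under U0126, with 9.73, 9.80 and 9.53 under DAPT, TAE226 and PP2, the same order as Gclc. Gclm was closest to Enah (0.04), Bicd2 (0.06) and Plbd2 (0.06), and Srxn1 to Actn1 (0.06), Morn4 (0.07) and Adamts5 (0.08). The Hmox1 pattern was nearest to Eif5a2 (0.06), Tnfrsf10b (0.07) and Shox2 (0.07), and the Gsr pattern to Slco3a1 (0.09), Atp11a (0.10) and Fmo2 (0.10). Tnfrsf10b averaged 5.95 under PP2, below the medians of the PP2 arrays. Sqstm1 resembled Ece2 (0.04), Slc6a9 (0.06) and Frmd4a (0.06). The flatter members had closer neighbours: Nfe2l2 with Fbxo28 (0.03), Fam219b (0.03) and Snx13 (0.04), Keap1 with 2700097O09Rik (0.01), Dcaf13 (0.02) and Socs6 (0.02), and Txnrd1 with Nop10, Atp5e and Tmem147 (0.02 each). Members could not be among these 27 neighbours, so the likeness of members to each other is not shown. The likeness rests on 5 means.

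The other NRF2 targets, a list that leaves out the members, moved mostly upwards under U0126. Of 24 listed, 21 were tested. Under U0126, where 19.5% of all genes were higher and 21.4% lower, 13 of these targets were higher and 1 lower (median 0.46). The largest were Gsta4 (3.05, SE 0.06), a glutathione transferase, Gpx2 (2.97, SE 0.35), a glutathione peroxidase, Nqo1 (2.66, SE 0.09), a quinone reductase, and Cbr3 (2.09, SE 0.10), a carbonyl reductase. Of 5 listed targets of the aryl hydrocarbon receptor 4 were tested, as Ahrr did not exceed the median on enough arrays. Cyp1b1 (5.63), Aldh3a1 (6.15) and Tiparp (1.84) rose there as well. Cyp1a1 was at least 56.9-fold higher than under vehicle, but it was dim in every group except U0126. It was thus tested only because of its U0126 arrays. Aldh3a1 and Cyp1b1 also rose under DAPT (2.03 and 0.94), TAE226 (1.39 and 1.45) and PP2 (2.03 and 1.43), whereas Tiparp fell under TAE226 (-0.30) and PP2 (-0.52). The part of that receptor in the values of the members was not tested. Under DAPT, with 17.1% of all genes higher and 17.5% lower, 8 of the 21 other NRF2 targets were higher and 2 lower (median 0.02). They were led by Gstm1 (0.95), Osgin1 (-0.61), Tkt (0.43) and Gsta4 (0.40).

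Under TAE226, 4 of these targets were higher and 6 lower (median 0.07), against 15.2% and 15.9% of all genes. Gstm1 stood at 0.85, Cbr3 at 0.42, Nqo1 at -0.39 and Idh1 at -0.38. PP2 gave 12 higher and 5 lower (median 0.33), against 26.1% and 26.7% of all genes. Among the targets, Nqo1 was at -1.01, Gsta4 at 0.93, Gstm1 at 0.92 and Abcc4, an efflux pump, at least 1.11-fold lower. Nqo1 thus rose under U0126 and fell under TAE226 and PP2, whereas Gclc and Gclm rose under each of these. On median-centred arrays the rises of Gclc under PP2 (0.07) and of Gclm under TAE226 (0.14) and PP2 (0.21) did not pass. The counts of the other NRF2 targets there were 2 higher and 4 lower under DAPT, 12 and 1 under U0126, 1 and 8 under TAE226 and 6 and 7 under PP2.

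**Figure D4:**
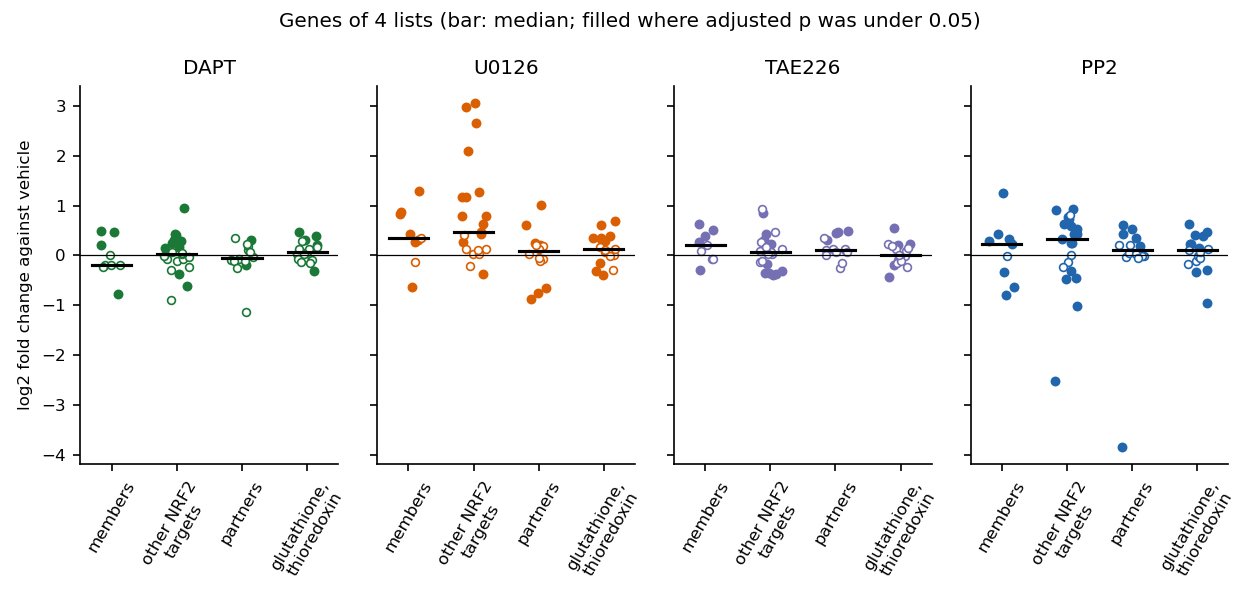
Log2 fold changes against vehicle of single genes of 4 lists (the 9 members, 21 other NRF2 targets, 14 partners and regulators, 17 glutathione and thioredoxin enzymes), 1 panel per inhibitor, filled where the adjusted p was under 0.05, with the median of each list as a bar. The other targets reach 3.05 under U0126, and the lowest points under PP2 are Maff and Abcc4, fitted values of genes that were dim there.

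RNA changes of the genes whose proteins work with NRF2 or control its stability were mixed. Of 14 partners and regulators, 1 was higher and 1 lower under DAPT, 4 and 3 under U0126, 4 and 0 under TAE226, and 5 and 1 under PP2. Of all genes, 17.1% were higher and 17.5% lower under DAPT, and 19.5% and 21.4% under U0126. These shares were 15.2% and 15.9% under TAE226, and 26.1% and 26.7% under PP2. Among the partners under TAE226, limma's unadjusted p was under 0.05 in the lower direction for 1 gene, Syvn1 (-0.16, adjusted p = 0.0805). Maff, a small MAF partner, was dim under PP2 and at least 3.59-fold lower there than under vehicle (adjusted p = 3.25e-06). Nfe2l3, a relative of NRF2, rose under U0126 (1.02, SE 0.08) and PP2 (0.61, SE 0.08). Bach2, a repressor that competes for the same elements, fell under U0126 (-0.88, SE 0.13) and rose under TAE226 (0.45, SE 0.13). Btrc, the adaptor of a KEAP1-independent ubiquitin ligase, likewise fell under U0126 (-0.76) and rose under TAE226 (0.47) and PP2 (0.52), and Syvn1, another ligase, fell under U0126 (-0.66) and DAPT (-0.20). Gsk3b, whose kinase marks NRF2 for that route, rose under DAPT (0.31), U0126 (0.20), TAE226 (0.30) and PP2 (0.34), Mafk under TAE226 (0.49) and Rbx1 under PP2 (0.42). On median-centred arrays the 4 rises under TAE226 and those of Btrc, Rbx1 and Gsk3b did not pass, while the falls under U0126 and of Maff did. The partners called lower were then 3 under DAPT (Maff, Bach2, Syvn1), 3 under U0126, 1 under TAE226 (Syvn1) and 2 under PP2 (Maff, Syvn1).

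Of 23 enzymes of glutathione and thioredoxin chemistry outside the members, 17 were tested. They were higher and lower in 4 and 1 cases under DAPT, 7 and 3 under U0126, 3 and 2 under TAE226 and 7 and 3 under PP2, with medians of 0.06, 0.12, -0.00 and 0.11. The shares of all genes called higher and lower were 17.1% and 17.5% under DAPT, 19.5% and 21.4% under U0126, 15.2% and 15.9% under TAE226, and 26.1% and 26.7% under PP2. The balance turned on median-centred arrays: every enzyme called under DAPT (1) and TAE226 (8) was lower, 3 were higher and 3 lower under U0126, and 2 were higher and 6 lower under PP2. There the rises of Cat and Gpx8 held under U0126 and those under the other inhibitors did not pass. Cat, catalase, rose by 0.69 under U0126, 0.46 under DAPT and 0.40 under PP2. Gpx8, a peroxidase of the endoplasmic reticulum, rose under DAPT (0.38), U0126 (0.62) and TAE226 (0.55) and fell under PP2 (-0.95). Prdx4, a peroxiredoxin of the same compartment, rose under PP2 (0.64) and fell under U0126 (-0.16) and TAE226 (-0.20). Ggct, which acts in glutathione breakdown, fell under all 4 inhibitors, from -0.31 under DAPT to -0.44 under TAE226.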

How the data were processed

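RNA of 15 mammosphere samples (250 ng total RNA each, 3′ IVT labelling) was hybridised to 1 array each. The deposited values are linear intensity values that the authors computed with MAS5 in Affymetrix Expression Console, per the submitters' processing notes, with versions not given in the sources used here. MAS5 scales each array: the mean without the lowest and highest 2% was 500 on every array, so a shift shared by all genes is removed and the scale itself can decide small calls. The number of arrays limits the precision.

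Intensities were converted to log2. Each gene took its brightest probe set without the _x_at suffix, and a gene was tested where it exceeded the array's median on 3 or more of the 15 arrays. Limma 3.58.1 (R 4.3.3; lmFit, and eBayes with an intensity trend) was fitted to all 5 groups with 10 contrasts and an F-test, and p-values were adjusted by Benjamini-Hochberg over 11412 genes, or over 21323 probe sets where a probe set is named. It was tested on simulated data. A gene below the median on every array of a group was called dim there, and its fold is a bound that sets each dim array at the higher of its median and its own value. Same-numbered arrays did not deviate together (correlations from -0.24 to 0.20), and the main fit did not pair them. Whether they share a mouse or culture cannot be told from this. At most 2 probe sets were equal on any 2 arrays.

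The members and all gene lists were chosen with earlier results of these data known, and the second promoter motif after the sequences had been seen. The text names every member, up to 4 genes of each other list per comparison with vehicle (the largest changes past the threshold, with their values elsewhere where they help), and the 3 most similar genes of each member.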

Additional observations from a re-analysis of the deposited data

How the results depend on the processing

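The results were recomputed under 11 other settings and with each of 15 arrays left out in turn. Over the other settings, 682 values of single members kept their direction and side of the threshold, 53 lost a call, 6 gained one and 7 reversed, while with arrays left out these numbers were 355, 46, 3 and 4. Centring arrays on their median left 4 members called under U0126 (7 as reported), 4 under PP2 (8) and 3 for TAE226 against DAPT (6), and turned Gsr (-0.05) and Txnrd1 (-0.17) under TAE226 and Txnrd1 under DAPT (-0.13). Quantile normalization left 3 members called under TAE226 (5). Averaging the probe sets of a gene left out those with an _x_at or _s_at suffix where the gene had others. It left 3 called for TAE226 against U0126 (5). Nfe2l2 under TAE226 against vehicle (0.17) and DAPT (0.04), and Sqstm1 under TAE226 (0.02), turned. The Srxn1 mean held only the dimmer probe sets, without the representative 1426875_s_at. That mean turned under DAPT (0.11) and was among the calls lost for TAE226 against U0126 (-0.20, adjusted p = 0.569). Leaving out an array gave 3 to 5 members called under TAE226 (3 without vehicle or TAE226 replicate 3) and 2 to 3 for PP2 against DAPT (4 with all arrays, 2 without DAPT replicate 1 or 2 or PP2 replicate 1), with ranges of -0.08 to 0.07 for Txnrd1 under DAPT and -0.08 to 0.06 for Srxn1 under PP2. The cause of these changes was not tested. With the replicate number as a block, 4, 7, 4 and 8 members were called under DAPT, U0126, TAE226 and PP2. The block ended Srxn1 under TAE226 (adjusted p = 0.0568) and Gclc for TAE226 against DAPT (adjusted p = 0.0589).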

Other observations

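Atf4, which encodes the transcription factor of the amino acid and integrated stress response, and its targets were mostly lower under every inhibitor. Of 12 genes tested, Atf4 included, limma called 8 lower under DAPT, 10 under U0126, 10 under TAE226 and 11 under PP2. The shares of all genes called lower were 17.5%, 21.4%, 15.9% and 26.7%. On median-centred arrays the numbers of these 12 called lower were again 8, 10, 10 and 11. Trib3, a pseudokinase induced by ATF4, fell under DAPT (-1.81), U0126 (-1.59), TAE226 (-1.66) and PP2 (-2.69, log2, SE 0.08 each). Chac1, which breaks down glutathione, fell in the same order of inhibitors by log2 changes of -1.61, -1.24, -1.29 and -2.22 (SE 0.09), and Ddit3, a stress transcription factor, by -2.07, -1.35, -1.44 and -1.62 (SE 0.11). Atf4 itself, counted among the 12, fell with -0.71, -0.63, -0.48 and -0.76 (SE 0.06). Against that direction, Sesn2 rose under TAE226 (0.79) and PP2 (0.25) and Phgdh under U0126 (0.58). On median-centred arrays Sesn2 stood at 0.03 under PP2 and did not pass, while the other rises held.

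Autophagy genes outside Sqstm1 were mostly higher under PP2, with 10 of 17 tested called higher and 1 lower, against 26.1% and 26.7% of all genes. Ulk1, the kinase that starts autophagy, rose under PP2 (0.93), TAE226 (0.52) and DAPT (0.42), and Map1lc3a, an autophagosome protein, under DAPT (0.65), PP2 (0.51) and U0126 (0.25). On median-centred arrays 4 were higher and 3 lower under PP2. Of the haem and iron handling genes, 15 were tested. Under DAPT 5 were higher and 2 lower, and under U0126 3 and 3. TAE226 gave 1 and 3, and PP2 3 and 3. Of all genes, 17.1% were higher and 17.5% lower under DAPT, and 19.5% and 21.4% under U0126. These shares were 15.2% and 15.9% under TAE226, and 26.1% and 26.7% under PP2. Median-centred arrays gave 0 and 2, 1 and 3, 0 and 5, and 0 and 4 in that order. Tfrc, the transferrin receptor, fell under all 4 inhibitors, from -0.29 under DAPT and U0126 to -0.74 under PP2. Slc40a1, the iron exporter, fell under DAPT (-0.51), U0126 (-0.22) and PP2 (-0.69). Flvcr1 rose under DAPT (0.42), and Alad rose under U0126 (0.61) and fell under TAE226 (-0.20).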
